A study of Homo sapiens with 6 samples.

Results

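RAB small GTPases are the largest branch of the RAS superfamily, and 63 of the 15953 genes measured in EJ cells carried a symbol that begins with RAB followed by a number, after regulators and binding proteins with similar names were left out. Of these 63 genes, 62 are RAB GTPase genes. The remaining gene, RAB5IF, was kept because its letters meet the rule, but it encodes a RAB5 interacting factor that is not a GTPase. The level of each gene was read in 3 control libraries and 3 STIL-knockdown libraries. EJ is a human bladder cancer (BLCA) cell line. The control cells (genotype shNC) carried the negative control lentivirus, and the STIL-knockdown cells (genotype shSTIL) carried a stable lentiviral knockdown of STIL, a centriole duplication gene whose relation to primary cilia (PC) in BLCA was the question of the study. Whether each stable line was clonal or pooled and which hairpin it carried were not given, and nothing states that the replicates were separate cultures, so p-values measured the spread between these libraries only.

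A RAB protein works as a switch. It is active with GTP and inactive with GDP, a guanine nucleotide exchange factor (GEF) turns it on, a GTPase-activating protein (GAP) turns it off, and effectors read the active form. Each RAB sits on its own membrane, held there by lipid groups on cysteines at the end of the protein, and steers vesicle budding, transport, tethering or fusion. For the PC, RAB11 on recycling endosomes recruits the GEF RABIN8 (gene RAB3IP), which activates RAB8 on the vesicles that build the ciliary membrane, while RAB23 restrains hedgehog signalling.

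The libraries held 16214800 to 16901600 reads assigned to genes. STIL itself read 5.98, 6.10 and 6.01 log2 CPM (counts-per-million, on the log2 scale) in control 1 to 3 and 4.05, 4.06 and 4.01 in STIL-knockdown 1 to 3, and was lower in every knockdown library (25.2% of control, limma, adjusted p = 6.10e-12). Of 13 epithelial and urothelial markers measured, 7 had at least 10 reads in every library (EPCAM, KRT7, KRT8, KRT18, PPARG, FOXA1 and UPK1A), and VIM, CDH2 and FN1, which mark mesenchymal cells, did as well. The summed level of the mesenchymal markers was 1530 to 1553 CPM in the control and 961 to 985 CPM in the STIL-knockdown libraries. That of the epithelial and urothelial markers was lower too, at 1095 to 1141 CPM in the control and 1011 to 1051 CPM in the STIL-knockdown libraries. Of these 13 markers, 2 were called higher and 3 lower (38.5% called, limma, beside 47.1% of all genes). Endothelial and muscle markers summed to under 1 CPM in every library. CD68, the 1 immune marker measured, stood at 10.67 to 11.8 CPM in the control and 12.97 to 14.79 CPM in the STIL-knockdown libraries. The 2 neuronal markers summed to 3.64 to 5.23 CPM and 3.08 to 4.74 CPM, with at least 10 reads of SYP in every library. None of the markers of these other cell types was called. All 30 genes of a list of S-phase replication genes were called lower (median log2 fold change -1.10). In these bulk libraries, fewer cells with a transcript and fewer transcripts per cell cannot be told apart. The part of the mesenchymal, epithelial and S-phase shifts in the RAB values was not tested.

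In STIL-knockdown cells, 35 of the 63 RAB genes were differentially expressed genes (DEGs, limma, adjusted p under 0.01 over all genes). Of these, 13 were higher and 22 were lower, and 28 were not called. RAB8A, RAB8B and RAB11A, of the traffic toward the ciliary membrane, fell to between 50.5% and 67.3% of their control level, while RAB23 and RAB28 rose to 141% and 148%. Of the RAB5 genes of early endosomes, RAB5A was higher and RAB5C lower. Across all genes, 47.1% were called, 23.5% higher and 23.6% lower, beside 55.6% of the RAB genes. Among genes with a mean of at least 1 log2 CPM, 33 of 51 RAB genes (64.7%) were called, against 61.9% of all such genes, so the share of RAB genes called was near the background. With each library's median set equal, 17 RAB genes were higher and 19 lower, and 7614 of all genes were called. The count called lower dropped to 14, 14, 13 and 14 when control 3 or STIL-knockdown 1, 2 or 3 was left out. In the same fits the count called over all genes dropped from 7509 to 5270, 5203, 5211 and 4900. After leaving out any single library, 23 of the 35 calls held. The 12 that did not hold in at least 1 of the 6 fits kept their direction in all of them. The median log2 fold change was -0.10 over the 63 genes and 0.0052 over all genes. The groups did not overlap for 49 of the 63 genes, against 60.3% of all genes. This share depends on level. With a mean of at least 1 log2 CPM, the groups were apart for 44 of 51 RAB genes and for 8569 of all 11319 such genes. A permutation test, exact and two-sided, over the 20 ways to split 6 libraries into groups of 3 could not give a p below 0.1, which was its value for each of those 49.

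**Figure D1:**
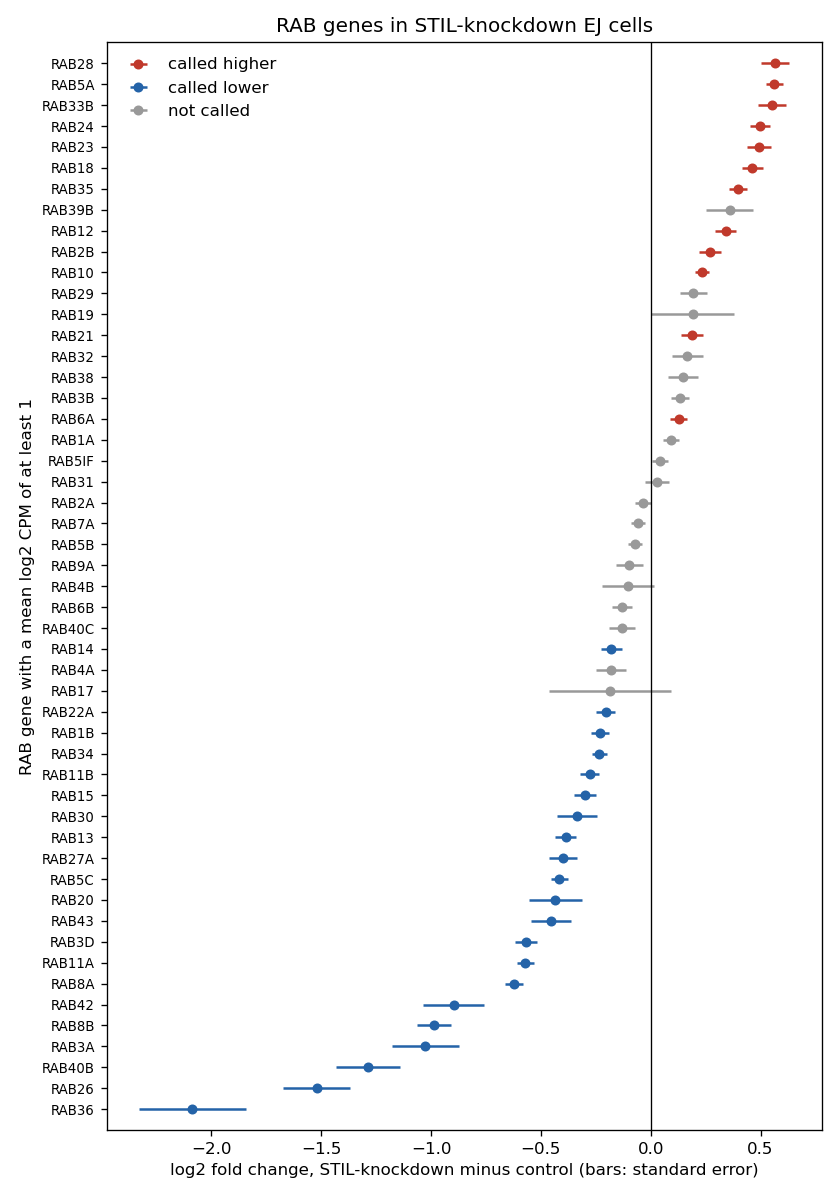
Log2 fold change of the 51 RAB genes with a mean of at least 1 log2 CPM (x axis, STIL-knockdown minus control), with 1 gene per row (y axis). Points are estimates from limma, bars are standard errors, red marks genes called higher, blue genes called lower and grey genes not called. RAB36 (-2.09) and RAB28 (0.57) are at the ends.

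The end of the coding sequence carries the cysteines that take the lipid groups, and is given here for some of the paralogs that the results turn on. The last 30 coding bases run from 5′ to 3′ on the coding strand up to the last codon before the stop (GENCODE 29, GRCh38), and capitals mark cysteine codons (TGC or TGT).
RAB8A: aggagcagctttttccgaTGTgttcttctg
RAB8B: aagaccagtttctttcgtTGCtcgctactt
RAB23: agaaatccttttagcagcTGTagcataccc
RAB28: tctactcagagtagaatcTGTtcagtacag
RAB11A: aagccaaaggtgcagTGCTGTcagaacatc
RAB11B: cccaacaagctgcagTGCTGCcagaacctg
RAB5A: caaccaaccaggaatcagTGTTGTagtaac
RAB5B: cagcagaacaagagccagTGTTGTagcaac
RAB8A, RAB8B, RAB23 and RAB28 end in a single cysteine that is the fourth residue from the end. RAB11A, RAB11B, RAB5A and RAB5B end in a pair of adjacent cysteines. Over the 63 genes, 11 had the single cysteine at that place, 49 had 2 cysteines among the last 5 residues and 3 (RAB41, RAB6D and RAB5IF) had neither. Of the 11, 3 were called higher and 4 lower (63.6% called), and of the 49, 10 were called higher and 18 lower (57.1%). Across all genes 47.1% were called, and 61.9% of those with a mean of at least 1 log2 CPM, so both shares were near the background. Genes with either kind of end were found in both directions, as were genes at large.

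RAB8A and RAB8B, which carry vesicles from the Golgi to the plasma membrane and the ciliary membrane, were both lower. RAB8A (chr19:16111629-16134234, plus strand, GRCh38) read 6.79, 6.68 and 6.72 log2 CPM in control 1 to 3 and 6.07, 6.07 and 6.17 in STIL-knockdown 1 to 3. Every knockdown library was below every control library, and RAB8A fell by 0.62 ± 0.042 (SE) on the log2 scale, to 64.9% of control (limma, adjusted p = 3.17e-08). Its exons overlap those of HSH2D on the same strand, a gene with 3 to 7 reads per library. RAB8B (chr15:63189469-63267782, plus strand, GRCh38) read 4.93, 5.24 and 5.13 log2 CPM in the control and 4.11, 4.16 and 4.08 log2 CPM in the knockdown libraries. The groups were again apart, and RAB8B fell by 0.99 ± 0.076, to 50.5% of control (adjusted p = 1.25e-07). The RAB8 reads summed to 138, 139 and 137 CPM in the control and 85.4, 86.6 and 90.1 CPM in the knockdown libraries, so the pair together stood at 63.2% of control. This sum lacks the library scaling of the fold changes, under which its percent would be lower.

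RAB11A and RAB11B mark recycling endosomes and act before RAB8 in PC assembly. RAB11A (chr15:65726054-65891991, plus strand, GRCh38) read 7.33, 7.38 and 7.34 log2 CPM in the control and 6.74, 6.86 and 6.75 in the libraries of STIL-knockdown cells. The 3 knockdown libraries were all lower, and RAB11A fell by 0.57 ± 0.038, to 67.3% of control (limma, adjusted p = 2.99e-08). RAB11B (chr19:8389981-8404434, plus strand, GRCh38) read 7.60, 7.43 and 7.55 log2 CPM in the control and 7.21, 7.23 and 7.31 in the knockdown libraries, without overlap. It fell by 0.28 ± 0.044, to 82.5% of control (adjusted p = 0.000101), and it was no longer called after any library but control 2 was left out (log2 fold change -0.31 to -0.24, adjusted p 0.0115 to 0.0226). RAB25, the third member of this branch, had at most 2 reads in a library.

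RAB23, RAB28 and RAB34 are the RAB genes best known for work at the PC itself. RAB23 (chr6:57186992-57222314, minus strand, GRCh38), the hedgehog repressor, read 5.05, 5.22 and 5.07 log2 CPM in the control and 5.58, 5.67 and 5.57 in the STIL-knockdown libraries. All 3 knockdown values were higher, and RAB23 rose by 0.49 ± 0.056, to 141% of control (limma, adjusted p = 5.25e-06). Its exons overlap BAG2 on the other strand, which was called lower (-0.32, 79.9% of control), and whether counting used strand was not given. RAB28 (chr4:13361354-13484365, minus strand, GRCh38), a GTPase moved by intraflagellar transport, read 4.40, 4.61 and 4.48 log2 CPM in the control and 5.07, 5.12 and 5.0 in the knockdown libraries. The groups were apart, and RAB28 rose by 0.57 ± 0.065, to 148% (adjusted p = 5.41e-06). RAB34 (chr17:28714281-28718429, minus strand, GRCh38), needed for cilia that begin inside the cell, read 7.92, 7.88 and 7.93 log2 CPM in the control and 7.63, 7.72 and 7.69 in the knockdown libraries. It was lower in each, and fell by 0.23 ± 0.033, to 85% of control (adjusted p = 4.12e-05).

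**Figure D2:**
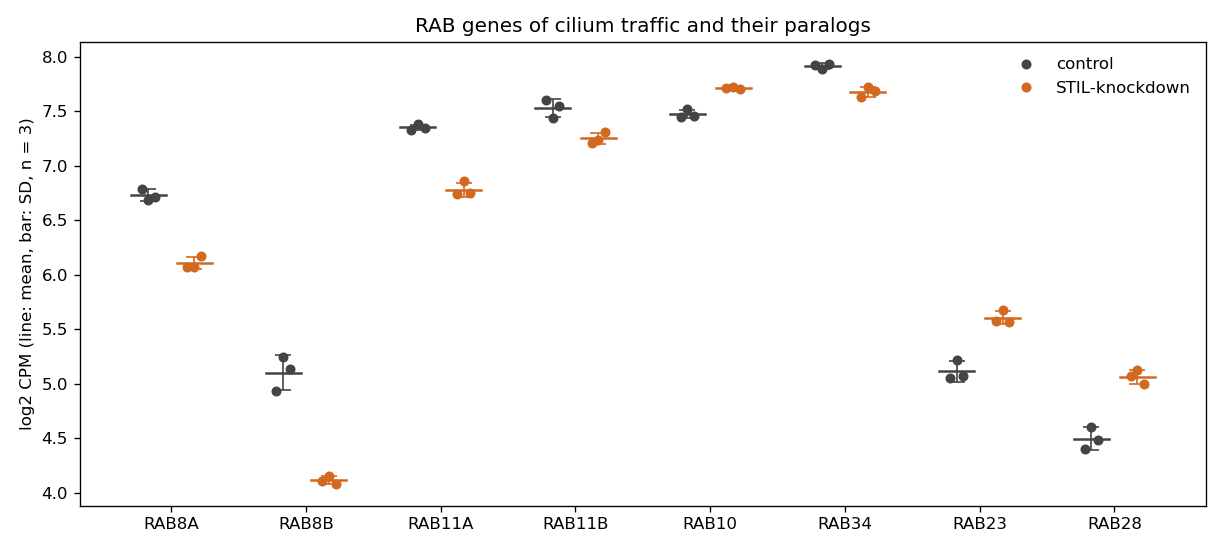
Level of 8 RAB genes in log2 CPM (y axis) in each library, control in grey and STIL-knockdown in orange. Points are libraries, horizontal lines are means and bars are SD (n = 3). RAB8A, RAB8B, RAB11A, RAB11B and RAB34 are lower and RAB10, RAB23 and RAB28 higher in every knockdown library.

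Of the genes that link these RABs, 12 were listed and 5 were called, 4 higher and 1 lower. That share (41.7%) was under the 47.1% of all genes and the 61.9% of genes with a mean of at least 1 log2 CPM. The RABIN8 gene RAB3IP, the GEF between RAB11 and RAB8, read 5.71, 5.66 and 5.64 log2 CPM in the control and 5.77, 5.83 and 5.72 in the libraries of STIL-knockdown cells. The knockdown values were above the control values by 0.10 ± 0.044 on average, but the difference did not pass the test (limma, adjusted p = 0.0609). EHD1, which shapes the ciliary vesicle, read 6.83, 6.68 and 6.68 log2 CPM in the control and 7.38, 7.41 and 7.43 in the knockdown libraries. It was higher in each of them, at 160% of control (log2 fold change 0.68, adjusted p = 1.68e-08). RILPL1, an effector that binds phosphorylated RAB8A and RAB10, reached 192% of control (0.94, adjusted p = 9.55e-08), while its paralog RILPL2 was at 83.2% (-0.26, adjusted p = 0.00625). EVI5L, a GAP tied to RAB23, reached 177% (0.82, adjusted p = 2.23e-07), and RAB11FIP3, a RAB11 effector, 126% (0.33, adjusted p = 2.71e-05). The other 7 genes were not called. They were RAB3IP, EHD3, EXOC6B, MICALL1, TRAPPC9, TRAPPC10 and TBC1D30, the RAB8 GAP, with log2 fold changes from -0.15 to 0.39.

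The exocytic group holds 13 genes that move secretory vesicles to the plasma membrane. Of these, 8 were called lower, beside 23.6% of all genes, and 1 was called higher. RAB8A and RAB8B, described above, are among the 8. The median log2 fold change, -0.61, was the value of RAB37, which had at most 3 reads in a library. Among the 9 genes with a mean of at least 1 log2 CPM, 7 were called lower and 1 higher, with a median of -0.57. Of all 11319 such genes, 3550 were called lower. Compartments were assigned with earlier results of these data known, so these counts describe the group and do not test it. RAB26, which acts in the maturation of secretory granules, read 3.09, 2.78 and 3.15 log2 CPM in the control and 1.30, 1.57 and 1.59 in the STIL-knockdown libraries (40 to 139 reads per library). The lowest control library was above the highest knockdown library by more than 1 log2 unit, and RAB26 fell by 1.52 ± 0.15, to 34.8% of control (limma, adjusted p = 1.49e-06). RAB3A and RAB3D, of regulated exocytosis, fell too. RAB3A read 2.30, 2.31 and 2.35 log2 CPM in the control and 1.12, 1.36 and 1.41 in the knockdown libraries, from 35 to 79 reads per library, and fell by 1.03 ± 0.15, to 49.1% of control (adjusted p = 6.59e-05). RAB3D read 5.33, 5.39 and 5.31 log2 CPM in the control and 4.73, 4.80 and 4.78 in the knockdown libraries, and fell by 0.57 ± 0.05, to 67.4% (adjusted p = 4.36e-07). In each of these genes the groups were apart.

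RAB3B, the RAB3 gene with the most reads, read 6.46, 6.55 and 6.57 log2 CPM in the control and 6.71, 6.62 and 6.65 in the STIL-knockdown libraries, a difference of 0.13 that did not pass the test (limma, adjusted p = 0.0116) but did under 5 alternatives, edgeR among them. RAB3C had 1 read in 1 control library and none elsewhere. Summed over the 4 genes, RAB3 stood at 131, 139 and 136 CPM in the control and 135, 131 and 132 CPM in the knockdown libraries. The sums overlapped, at 97.9% of control, while RAB3A and RAB3D fell. These sums lack the library scaling of the fold changes, under which the percent would be lower. RAB27A and RAB13, of secretion and tight junctions, were also called lower (-0.40 and -0.39, with 56.3% of the 50-base words of RAB13 found in other annotated genes), and RAB27B with them at 36, 39 and 43 reads in the control and 26, 20 and 19 reads in the knockdown libraries. The call of RAB27A was lost without STIL-knockdown 1 or 2 (adjusted p up to 0.0123), and that of RAB27B after any library but STIL-knockdown 1 (up to 0.0177). RAB10, which carries cargo to the basolateral and ciliary membranes, was the exception. It read 7.45, 7.52 and 7.46 log2 CPM in the control and 7.71, 7.72 and 7.71 in the knockdown libraries, and rose by 0.24 ± 0.031 in libraries that did not overlap, to 118% (adjusted p = 2.23e-05). RAB37 and RAB44 were not called and had at most 7 reads.

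Early endosomes are organised by RAB5, whose paralogs moved apart. RAB5A (chr3:19947079-19985175, plus strand, GRCh38) read 6.20, 6.28 and 6.29 log2 CPM in the control and 6.88, 6.82 and 6.77 in the STIL-knockdown libraries. All knockdown libraries were higher, and RAB5A rose by 0.56 ± 0.04, to 148% of control (limma, adjusted p = 5.41e-08). RAB5C (chr17:42124976-42155044, minus strand, GRCh38) read 8.11, 7.97 and 8.03 log2 CPM in the control and 7.57, 7.61 and 7.68 in the knockdown libraries. They were all lower, and RAB5C fell by 0.42 ± 0.04, to 74.9% (adjusted p = 9.67e-07). In RAB5C, 36.2% of the 50-base words of its chosen transcript also occur in an overlapping annotated gene, and the reads of these could not be told apart. RAB5B read 7.23, 7.25 and 7.30 log2 CPM in the control and 7.20, 7.16 and 7.20 in the knockdown libraries, with a difference of -0.071 that did not pass the test (adjusted p = 0.0823). Summed, RAB5 stood at 489, 477 and 486 CPM in the control and 459, 459 and 467 CPM in the knockdown libraries, which is 95.4% of control. The RAB5 sum lacks the library scaling of the fold changes, under which its percent would be lower. Of the other early endosome genes, RAB21 was called higher (0.19), RAB22A (-0.21) and RAB20 (-0.43) lower, and RAB31 and RAB17 were not called. The calls of RAB21 and RAB20 were lost whichever library was left out (adjusted p up to 0.0426 and 0.0497), and that of RAB22A after any library but control 1 (up to 0.0369).

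**Figure D3:**
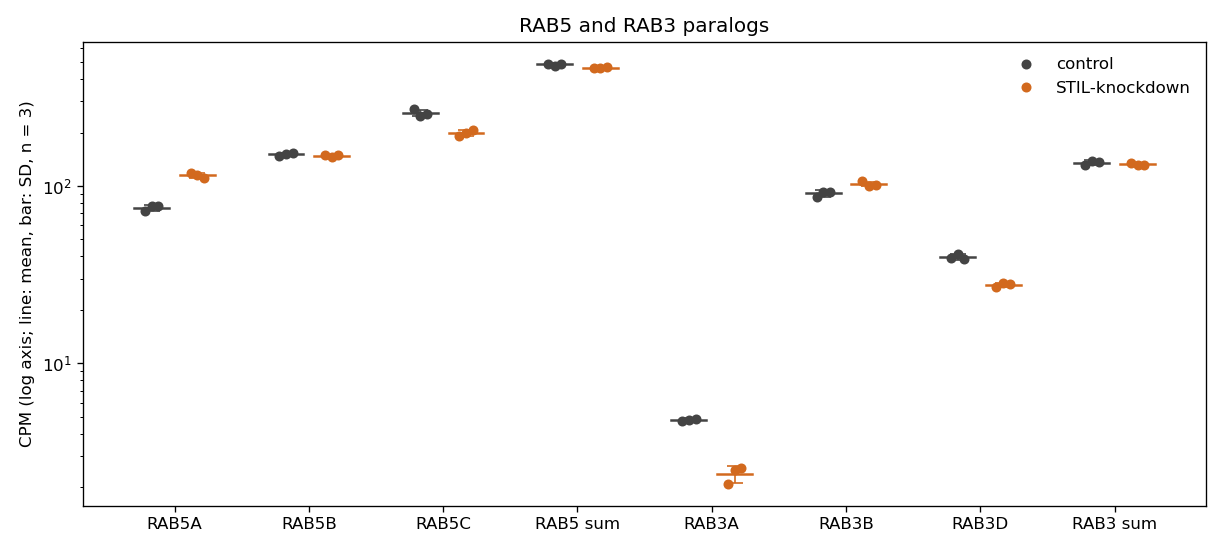
Recovered reads scaled to CPM (y axis, log scale) of RAB5 and RAB3 paralogs and of each family's sum in each library, control in grey and STIL-knockdown in orange. Points are libraries, lines are means and bars are SD (n = 3). RAB5A is higher and RAB5C, RAB3A and RAB3D are lower in all knockdown libraries, and the RAB5 sum is 95.4% and the RAB3 sum 97.9% of control. The CPM shown lack the library scaling of the fold changes, under which both percents would be lower.

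Among the other recycling genes, RAB35, which returns endocytosed cargo to the plasma membrane, read 5.52, 5.46 and 5.51 log2 CPM in the control and 5.87, 5.93 and 5.88 in the libraries of STIL-knockdown cells. The groups were apart, and RAB35 rose by 0.40 ± 0.042, to 132% of control (limma, adjusted p = 2.43e-06). Its GEF DENND1B had the largest rise among called regulators with a mean of at least 1 log2 CPM, and was at 207% of control. RAB15 (-0.30) and RAB14 (-0.18) were called lower, and the call of RAB14 was lost whichever library was left out (adjusted p up to 0.0928). RAB4A and RAB4B were not called.

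Among the 15 genes of the endoplasmic reticulum (ER) and Golgi, 5 were called higher and 4 lower, beside 23.5% and 23.6% of all genes. RAB36, which acts in the positioning of late endosomes and lysosomes and was grouped with the Golgi genes, had the largest fall of all members. It read 2.2, 2.57 and 2.22 log2 CPM in the control and 0.30, -0.29 and 0.72 in the STIL-knockdown libraries, from 72, 95 and 72 reads against 19, 12 and 26 reads. The groups were more than 1 log2 unit apart although the knockdown libraries differed among themselves, and RAB36 fell by 2.09 ± 0.24, to 23.5% of control (limma, adjusted p = 6.31e-06). RAB33B, a Golgi RAB that binds the autophagy protein ATG16L1, read 4.19, 4.27 and 4.23 log2 CPM in the control and 4.86, 4.77 and 4.71 in the knockdown libraries, and rose by 0.55 ± 0.064, to 147% (adjusted p = 5.63e-06). RAB18, of the ER and lipid droplets, read 5.66, 5.86 and 5.76 log2 CPM in the control and 6.21, 6.26 and 6.21 in the knockdown libraries, and rose by 0.46 ± 0.05, to 138% (adjusted p = 2.87e-06). RAB33B and RAB18 were higher in each knockdown library than in any control library. RAB33A, the paralog of RAB33B, was called higher on 1, 0 and 1 reads in the control and 4, 3 and 4 reads in the knockdown libraries, a call that edgeR did not make (adjusted p = 0.055) and that was lost after any library but control 2 was left out (adjusted p 0.0129 to 0.0274).

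RAB2A and RAB2B keep the Golgi in shape. RAB2B read 4.94, 5.02 and 4.95 log2 CPM in the control and 5.21, 5.26 and 5.24 in the STIL-knockdown libraries, which were all higher, and rose by 0.27 ± 0.049, to 121% of control (limma, adjusted p = 0.000358). RAB2A read 6.69, 6.75 and 6.70 log2 CPM in the control and 6.66, 6.71 and 6.67 in the knockdown libraries, and its groups overlapped (difference -0.035, adjusted p = 0.431). RAB43, another Golgi RAB, read 4.47, 4.20 and 4.54 log2 CPM in the control and 4.03, 3.91 and 3.91 in the knockdown libraries, and fell by 0.46 ± 0.09, to 72.9% (adjusted p = 0.000673). Its value is uncertain, because 90.9% of its 50-base words occur in other genes, foremost the readthrough gene ISY1-RAB43 (-0.08, not called), and it was no longer called after any library but control 2 was left out (log2 fold change -0.50 to -0.39, adjusted p 0.0238 to 0.0436). RAB1B (-0.23) and RAB30 (-0.34) were called lower and RAB6A (0.13), which shares over 20% of its words with other genes, higher, all by less than 0.5 log2 units. The call of RAB6A was lost whichever library was left out (adjusted p up to 0.0735), that of RAB1B after any but control 2 (up to 0.0341) and that of RAB30 after any but control 1 (up to 0.0316).

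Of the 11 late endosome and lysosome genes, 2 were called higher, 1 lower and 8 were not called, beside 47.1% of all genes called. RAB7A, the central RAB of this compartment, read 8.13, 8.03 and 8.05 log2 CPM in the control and 8.01, 8.0 and 8.03 in the STIL-knockdown libraries, a difference of -0.058 that did not pass the test (limma, adjusted p = 0.161). RAB12, of transport from endosomes to lysosomes, read 5.47, 5.51 and 5.62 log2 CPM in the control and 5.89, 5.88 and 5.86 in the knockdown libraries, and rose by 0.34 ± 0.047, to 127% of control (adjusted p = 3.12e-05). RAB24, an unusual RAB of autophagy, read 5.58, 5.48 and 5.52 log2 CPM in the control and 6.04, 6.07 and 5.96 in the knockdown libraries, and rose by 0.50 ± 0.045, to 141% (adjusted p = 6.25e-07). For RAB12 and RAB24 the groups were apart. RAB24 shares 69.4% of its 50-base words with MXD3, an overlapping gene on the same strand that was called lower (-0.98, 50.8% of control), so the split of reads between them is uncertain. RAB42 read 2.88, 2.53 and 2.75 log2 CPM in the control and 1.79, 1.83 and 1.85 in the knockdown libraries (116, 92 and 105 reads against 57, 59 and 59), without overlap, and fell by 0.90 ± 0.14, to 53.7% (adjusted p = 9.22e-05).

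The RAB40 genes carry a SOCS box that joins them to a ubiquitin ligase. RAB40B read 3.60, 3.16 and 3.28 log2 CPM in the control and 2.07, 1.87 and 2.24 in the STIL-knockdown libraries. Every knockdown library was lower by close to 1 log2 unit or more, and RAB40B fell by 1.29 ± 0.14, to 41% of control (limma, adjusted p = 4.65e-06). RAB40C read 4.97, 4.84 and 4.91 log2 CPM in the control and 4.78, 4.72 and 4.83 in the knockdown libraries (difference -0.13, adjusted p = 0.0706). RAB40A had 3 to 11 reads and RAB40AL 0 to 3 reads per library, and neither was called.

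**Figure D4:**
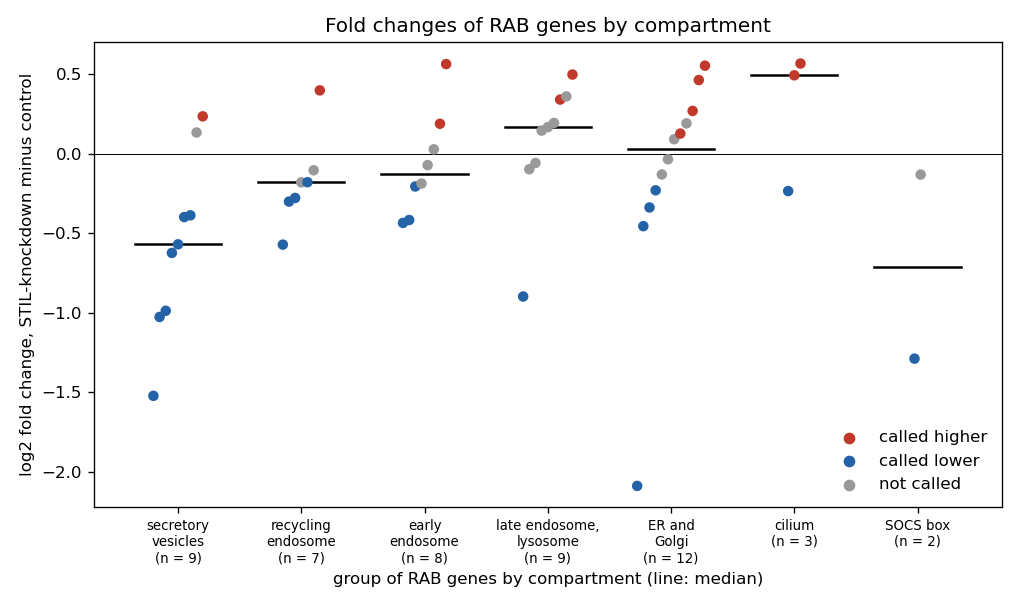
Log2 fold change (y axis, STIL-knockdown minus control) of RAB genes with a mean of at least 1 log2 CPM, by compartment (x axis), with RAB5IF left out. Points are genes, black lines are medians, red marks genes called higher, blue genes called lower and grey genes not called. Among the 9 secretory vesicle genes, 7 are called lower and 1 higher. Compartments were assigned with earlier results of these data known.

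Per kilobase of transcript, the RAB genes with the highest level in control cells were RAB5C (135 ± 5.56 CPM per kb, SD, n = 3), RAB34 (134 ± 1.49) and RAB1B (131 ± 7.27), which did not differ beyond their spread. RAB7A (118 ± 3.93) and RAB11B (104 ± 5.41) came next. In STIL-knockdown cells RAB34 (118 ± 4.26), RAB7A (117 ± 1.01) and RAB1B (115 ± 2.17) were within their spread of each other, and RAB5C stood at 104 ± 4.12. RAB8A stood at 36.9 ± 1.18 CPM per kb in the control and 24.7 ± 0.968 in the knockdown, and RAB5A at 29.7 ± 1.09 and 45.3 ± 1.57. RAB5A was thus below RAB8A in control cells and above it in STIL-knockdown cells. All 63 genes together took 3442 ± 13.9 CPM in the control and 3357 ± 27.3 CPM in the knockdown libraries (97.5% of control). These sums and levels lack the library scaling of the fold changes, under which the percent would be lower.

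The regulators of RAB proteins were measured in 121 genes, of which 43 were called higher and 27 lower. These were 57.9% of the list, beside 47.1% of all genes and 61.9% of genes with a mean of at least 1 log2 CPM, which 108 of the 121 reached, so the share called was near the background. The count called dropped from 70 to between 38 and 47 when a library was left out, with 38 after STIL-knockdown 2 or 3, 42 after STIL-knockdown 1 and 45 after control 1. Over all genes it dropped from 7509 to between 4900 and 5638. By role, 13 of 37 GEFs were higher and 8 lower, 12 of 34 GAPs were higher and 11 lower, 16 of 43 effectors were higher and 6 lower, and 2 of 7 carrier and lipid-attachment genes were higher and 2 lower. The latter include RABGGTA, a subunit of the enzyme that adds geranylgeranyl lipids to the terminal cysteines of most RAB proteins, which read 4.26, 4.15 and 4.21 log2 CPM in the control and 3.37, 3.64 and 3.68 in the STIL-knockdown libraries. It was lower in each, and fell by 0.64 ± 0.091, to 64.1% of control (limma, adjusted p = 4.21e-05).

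Other large falls included effectors and GEFs of exocytic RABs. SYTL4, an effector of RAB27 and RAB3, read 3.61, 3.67 and 3.73 log2 CPM in the control and 2.62, 2.73 and 2.73 in the STIL-knockdown libraries, and fell by 0.98 ± 0.10, to 50.7% of control (limma, adjusted p = 1.35e-06). DENND2B, a GEF of RAB13, stood at 52.6% (-0.93, adjusted p = 0.00516), with STIL-knockdown 2 (0.54 log2 CPM) far below the other knockdown libraries. MICALL2, an effector of RAB13, stood at 55% (-0.86, adjusted p = 8.92e-05), and HPS1, part of the GEF of RAB32 and RAB38, at 67.6% (-0.56, adjusted p = 1.51e-05). On the side of the rises, DENND1B read 3.82, 4.0 and 3.96 log2 CPM in the control and 5.05, 4.96 and 4.91 in the knockdown libraries, a rise of 1.05 ± 0.07 (adjusted p = 2.92e-08). The RAB11 effector RAB11FIP2 was at 178% of control (0.83, adjusted p = 1.96e-08), and the GAP TBC1D22B at 177% (0.82, adjusted p = 6.12e-09). RAB11FIP2 and RAB11FIP3 were thus higher in cells with lower RAB11A.

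A short interfering RNA can also bind 3′ UTRs through its seed, bases 2 to 8 of the antisense strand. The study lists 3 siRNAs against STIL, and whether the hairpin of these stable cells has the sequence of any of them was not given. The antisense strands are shown with the seed in capitals, since genes named above hold the matching 8-base word (the seed's reverse complement followed by A) in their longest annotated 3′ UTR.
siSTIL#1: aAUAUGUAucgcaaacagc
siSTIL#2: uUAAUCCAgagaucacugc
siSTIL#3: uUGUGGAAcaguaagaugg
The word TACATATA of siSTIL#1 was found in 4 of 51 RAB genes with a mean of at least 1 log2 CPM (7.84%) and in 7.39% of 11075 genes. These were RAB3A, called lower, RAB18 and RAB21, called higher, and RAB5B, not called. The word TGGATTAA of siSTIL#2 was found in 3 RAB genes (5.88%, against 4.49% of all genes). RAB8B and RAB30 were called lower and RAB31 was not called. The word TTCCACAA of siSTIL#3 was found in 5 RAB genes (9.80%, against 4.51%), with RAB11A called lower, RAB21 called higher, and RAB29, RAB38 and RAB6B not called. The site in RAB8B and that in RAB11A, both on the plus strand (GRCh38), are given with the bases around them and the word in capitals.
RAB8B, chr15:63265807-63265814: tttgtcttataTGGATTAAtaactagtctc
RAB11A, chr15:65888269-65888276: gcagtgtacatTTCCACAAatctaagaatt
A match of these letters is a description, and its part in the values of RAB8B and RAB11A was not tested.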

How the data were processed

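The authors aligned filtered reads to human transcripts (hg38, Bowtie2) and estimated expression with RSEM, whose versions were not given in the sources used here. The deposited values are log2 CPM for 15953 genes in 6 libraries, and the authors also deposited expected counts (RSEM estimated counts) of 15957 genes for 4 of the libraries. The log2 CPM equalled edgeR values with TMM scaling and a prior count of 2 to within 7.72e-08. Reads were recovered from the log2 CPM and came within 0.0086 reads of those counts where a table was given. They were whole within 0.02 reads for 88.1 to 88.4% of values. Groups followed the genotype labels. limma 3.58.1 (R 4.3.3, with mean-variance trend) was fitted on the log2 CPM of all genes, with Benjamini-Hochberg adjustment over all of them and calls at an adjusted p under 0.01. Reads in the text are the deposited counts of those 4 libraries and recovered reads of control 2 and control 3. edgeR 4.0.16 and DESeq2 1.42.0 on these reads, rounded, and 15 other settings were alternatives. On simulated data limma over all genes missed many changed genes and made a larger share of false calls than its threshold, all among genes with a mean under 1 log2 CPM. edgeR, and limma without those genes, recovered nearly all. The simulation changed a far smaller share of genes than the 47.1% called in the data, and none with few reads. Its rates of missed and false calls therefore need not hold for the data. Percent of control is 2 to the power of the log2 fold change. Sums of genes and levels per kilobase used these reads as CPM without TMM scaling. Named members were RAB8A, RAB11A, RAB23, the 10 largest rises and falls among called members with a mean of at least 1 log2 CPM, and their paralogs. Other members are given by their fold change or reads. Of the regulators, the 5 largest rises and falls among called genes with the same minimum and the PC cascade were named. Word sharing set 1 chosen transcript of each member against all transcripts of other genes in GENCODE 29. The members, lists and compartments were chosen with earlier results of these data known. Sequence coordinates are GRCh38.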

Additional observations from a re-analysis of the deposited data

How the results depend on the processing

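Of 17 alternatives, none reversed the direction of a named called gene. RAB8A, RAB11A and RAB23 stayed past the threshold in all but the requirement of an absolute log2 fold change above 1, which their values of -0.62, -0.57 and 0.49 do not meet. That requirement left 951 genes, 5 RAB genes (1 higher, RAB33A, and 4 lower) and 2 regulators. Tested against a 1.2-fold change, limma called 3317 genes, 16 RAB genes (6 higher, 10 lower) and 23 regulators. Leaving out 1 library, which lowers the residual degrees of freedom, gave 4900 to 5638 genes, 24 to 28 RAB genes, 10 to 11 higher and 13 to 17 lower, and 38 to 47 regulators. The lowest count of all genes, 4900, came without STIL-knockdown 3. The calls of 12 RAB genes did not hold in at least 1 of the 6 fits. RAB14, RAB20, RAB21 and RAB6A lost theirs in every fit (highest adjusted p 0.0928, 0.0497, 0.0426 and 0.0735, limma). RAB11B, RAB1B, RAB33A and RAB43 (0.0226, 0.0341, 0.0274 and 0.0436) lost theirs in all but that without control 2, RAB22A and RAB30 (0.0369 and 0.0316) in all but that without control 1, RAB27B (0.0177) in all but that without STIL-knockdown 1, and RAB27A (0.0123) without STIL-knockdown 1 or 2. edgeR called 37 RAB genes and 7828 of all genes, and DESeq2 31 and 6782. Without the mean-variance trend 28 RAB genes and 5855 of all genes were called. The deviations of libraries with the same replicate number correlated at -0.12, -0.06 and -0.11, which gives no sign that equal numbers mark paired libraries. With the replicate block 32 RAB genes and 6898 genes were called, without RAB20, RAB30 and RAB6A. Of the other named RAB genes' values under the alternatives, 407 stayed on their side of the threshold (with sign changes for some genes that were not called, RAB2A among them), 40 kept their direction but no longer passed, and 5, all of RAB3B, came past the threshold. Members sharing over 20% of 50-base words with other genes numbered 10 (RAB43, RAB24, RAB4A, RAB4B, RAB13, RAB6A, RAB6D, RAB40AL, RAB5IF and RAB5C). Without them 30 of 53 were called (56.6%), 11 higher and 19 lower, beside 47.1% of all genes and 61.9% of those with a mean of at least 1 log2 CPM. Of the 12 RAB genes with a mean under 1 log2 CPM, 2 were called (16.7%, RAB27B and RAB33A), beside 47.1% of all genes at any level. On simulated data all false calls of limma over all genes fell in this range, but far fewer genes were changed there than were called here.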

Other observations

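Other branches of the RAS superfamily were counted in the same fit, from lists of family members. Of 23 ARF and ARL genes, which recruit vesicle coats and act in cilium traffic, 7 were called higher and 9 lower in STIL-knockdown cells (limma, adjusted p under 0.01), with log2 fold changes from -0.87 to 0.56. Of 27 RAS genes, which pass growth signals on, 6 were higher and 6 lower (-1.39 to 1.86). The medians of the log2 fold changes were 0.09 and 0.04, beside -0.10 for the RAB genes. Differences between these families were not tested.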
